A study of Drosophila melanogaster with 9 samples.

Results

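MicroRNAs are short RNAs cut from a hairpin precursor whose 5p and 3p arms can each give a mature form. A mature miRNA loaded onto an Argonaute protein pairs with messenger RNAs mainly through its seed, the bases near its 5′ end, and lowers their translation or stability. Drosophila has a pair of genes of the conserved miR-31 family, miR-31a and miR-31b, whose 5p forms are closely similar and share the same seed. In mice, miR-31 has roles in the stem cells of the intestine and in gut repair, and in flies loss of miR-31a has been studied for its effect on glia of the adult brain.

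The miR-31a and miR-31b hairpins have 4 arms in the deposited small RNA table of the adult fly midgut. Of these, 2 arms were listed above 0 and are described here, dme-miR-31a-5p and dme-miR-31b-5p (miR-31a-5p and miR-31b-5p below), out of 145 miRNAs listed above 0 in the whole table. miR-31a-3p and miR-31b-3p were listed at 0 in all 9 libraries. The hairpins were chosen on measured values from these same libraries, the steady level of miR-31a and the scarcity of miR-31b across the 3 groups. The levels and differences of the members are therefore given as a description with their error and with no test.

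All flies were wild-type Oregon-R, and each group had 3 midgut libraries of total small RNA. The Pe day 3 flies received the treatment that the labels write as Pe, without spelling it out, and were 7 to 8 days old when sampled on day 3. The Pe day 0 flies received the same treatment and were sampled on day 0 at 4 to 5 days old. The mock flies were fed sucrose and sampled on day 0, also at 4 to 5 days old, so Pe day 3 differs from both other groups in age as well. The series is about how regeneration of the midgut begins and ends. Nothing in the labels ties the 3 libraries of a group to separate fly pools, and the spread between them may be technical.

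The miRNA reads behind a library, worked back from the deposited values, ranged from 224873 to 1238105. miR-956-3p alone took 69.8% to 80.2% of them, so the RPM, or reads per 1000000 miRNA reads, of every other miRNA depend on how much miR-956-3p a library holds. The gut miRNAs miR-263a and miR-281 summed to 53667 to 67011 RPM at Pe day 3, 35280 to 50809 RPM at Pe day 0 and 32092 to 55681 RPM in mock. Most of each sum was miR-263a-5p. In the limma model described below, miR-281-2-5p had a log2 change of -1.02 for Pe day 3 over mock and of -1.06 for Pe day 0 over mock. The muscle list (miR-1 and miR-133) had 2 of 4 arms above 0 and summed to 267 to 382 RPM at Pe day 3, 64.2 to 140 RPM at Pe day 0 and 76.3 to 110 RPM in mock. The neuronal list (miR-124, which was at 0, and miR-987) summed to 8.89 to 33.7 RPM, 3 of 14 arms of the early embryo list summed to 0 to 33.0 RPM, and the 6 testis arms were at 0. The ovary marker miR-989-3p was at 0 in 8 libraries and stood at 77.5 RPM in Pe day 0 replicate 3.

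On assembly BDGP6 the miR-31a hairpin lies on the minus strand of chromosome 2R, from 17783795 to 17783886. It is outside other annotated genes, 1865 bases from fab1, a lipid kinase gene on the same strand, and 2249 bases from aft on the other. Its mature 5p form spans 23 bases (17783851 to 17783873) and its 3p form 22 bases (17783806 to 17783827). The miR-31b hairpin lies on the minus strand of chromosome X, from 8993305 to 8993431, with both mature forms 22 bases long. It is within an intron of the long non-coding RNA gene CR43836 on the same strand and within an intron of rdgA, a diacylglycerol kinase gene needed in photoreceptors, on the opposite strand. Neither hairpin has another miRNA gene within 10000 bases, and the paralogs are on different chromosomes.

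miR-31a-5p was an abundant midgut miRNA in every library. Its deposited level was 7274, 7696 and 7164 RPM in the Pe day 3 libraries (replicates 1, 2 and 3). The Pe day 0 libraries had 5395, 6404 and 6533 RPM. The mock libraries had 5359, 5756 and 7803 RPM. The highest and the lowest value of the whole series were both in the mock group, and they differed 1.46-fold. The group means were 7378 ± 281 RPM at Pe day 3, 6111 ± 623 RPM at Pe day 0 and 6306 ± 1312 RPM in mock (SD, n = 3 each). These levels rest on 1611 to 8089 reads per library and equal 0.536% to 0.780% of all miRNA reads.

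**Figure D1:**
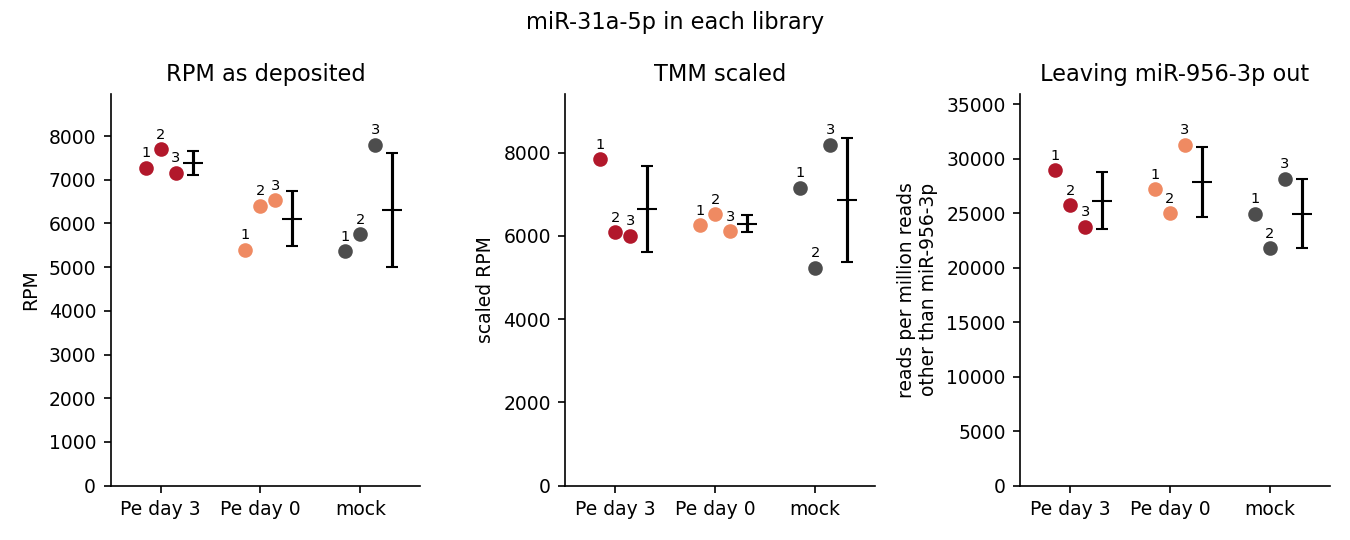
Level of miR-31a-5p in each of the 9 libraries by group, as deposited RPM (left), as RPM scaled with trimmed-mean factors (middle) and per 1000000 reads other than miR-956-3p (right). Points are libraries with their replicate number, and the bar beside them is the mean with the SD (n = 3). As deposited, the Pe day 3 libraries (7164 to 7696 RPM) lie above the Pe day 0 libraries (5395 to 6533 RPM), while on both other scales these groups overlap. The share of all miRNAs that separate these groups as deposited was not counted, so nothing particular to miR-31a-5p is read from this.

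In the order of mean levels over the 9 libraries, miR-31a-5p had rank 5, with 6598 RPM. Above it were miR-956-3p with 747589 RPM, miR-10-5p, encoded among the Hox genes, with 90893 RPM, miR-184-3p with 52548 RPM and miR-263a-5p, which limits sodium channel subunits in the fly gut, with 48244 RPM. Each of these 4 exceeded miR-31a-5p in all 9 libraries, and the lowest library of miR-263a-5p, at 30625 RPM, was far above the highest of miR-31a-5p.

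The neighbour below did not differ from it beyond the spread of the libraries. miR-10-3p averaged 6443 RPM with a range of 4722 to 8670 RPM, and it exceeded miR-31a-5p in 3 of 9 libraries. bantam-3p, which promotes growth and blocks cell death, averaged 4828 RPM, and miR-8-3p averaged 4543 RPM. Both were below miR-31a-5p in all 9 libraries. miR-34-5p, known for a role in brain ageing, passed miR-31a-5p in 2 libraries, both of Pe day 3. The rank of miR-31a-5p within a library was 5 in 5 libraries, 6 in 3 libraries and 7 in Pe day 3 replicate 3.

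**Figure D2:**
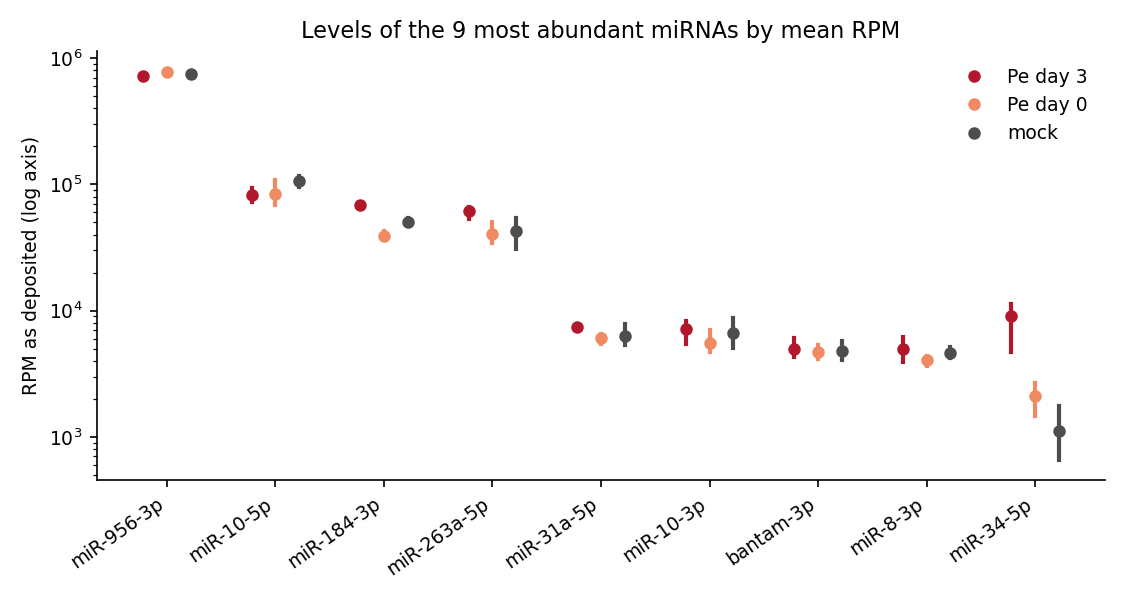
Deposited RPM (log axis) of the 9 most abundant miRNAs, in order of their mean over the 9 libraries, with the group mean as a point and the lowest to highest of its 3 libraries as a line. miR-31a-5p stands in the step below the 4 leading miRNAs, with group means between 6111 and 7378 RPM, and its ranges overlap those of miR-10-3p.

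The libraries were next set on a common scale by TMM, the trimmed mean of M values, since the dominance of miR-956-3p differs between them. These factors give more weight to miRNAs with more reads, so miR-31a-5p may have weighed on its own scaling. How far this narrowed its changes and its spread on the TMM scale was not tested. Scaled, miR-31a-5p stood at 7834, 6081 and 5999 RPM at Pe day 3, at 6250, 6513 and 6108 RPM at Pe day 0, and at 7154, 5234 and 8189 RPM in mock. The means were 6638 ± 1036, 6291 ± 205 and 6859 ± 1499 scaled RPM in that order (SD, n = 3 each). The mock libraries spanned the range of both treated groups, and Pe day 0 was the narrowest group on this scale.

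The changes of miR-31a-5p between groups were small beside their error. In a limma model of all 73 miRNAs that passed a filter on low values, on log2(scaled RPM + 4.02), its log2 change was -0.03 ± 0.21 SE for Pe day 3 over mock, with a 95% interval of -0.46 to 0.39. For Pe day 0 over mock it was -0.10 ± 0.21 SE, with an interval of -0.52 to 0.32. For Pe day 3 over Pe day 0 it was 0.07 ± 0.21 SE, with an interval of -0.36 to 0.49. As folds, these intervals run from 0.728 to 1.31, from 0.695 to 1.25 and from 0.781 to 1.41. The model therefore leaves room for changes of up to about these sizes in either direction, and it does not show that the level was the same.

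The same model, with a Benjamini-Hochberg adjusted p under 0.05 as the threshold, called 13 of 73 miRNAs (17.8%) for Pe day 3 over mock, 3 (4.11%) for Pe day 0 over mock and 2 (2.74%) for Pe day 3 over Pe day 0. Leaving out 1 library moved the first count to 4 (without Pe day 3 replicate 2 or mock replicate 1) and to 6 (without mock replicate 3). It moved the second to 0 (without Pe day 3 replicates 2 or 3, Pe day 0 replicate 2, or mock replicates 1 or 3; 9 to 21 miRNAs at an unadjusted p under 0.05 in limma) and to 8 (without Pe day 3 replicate 1). It moved the third to 7 (without Pe day 3 replicate 1) and to 4 (without Pe day 0 replicate 2 or 3). miR-31a-5p was among none of the calls of the model with all libraries, and since it was chosen as steady nothing is read from that. miR-31b-5p did not pass the filter and was not in the model. Blocking on the replicate number left 1 call for Pe day 0 over mock, and the log2 changes of miR-31a-5p were the same with an SE of 0.20. The median log2 change of all 73 was 0.21, 0.17 and 0.01 in the order of comparisons above, and miR-31a-5p lay 0.24 below, 0.27 below and 0.06 above it.

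The sign of each change turned with the scaling. For Pe day 3 over mock the log2 change of miR-31a-5p was 0.25 ± 0.21 SE with RPM as deposited, -0.19 ± 0.23 with median-of-ratios factors, -0.24 ± 0.21 relative to the total without the 5 most abundant miRNAs and 0.07 ± 0.18 relative to the total without miR-956-3p, a scale added after the data were seen. For Pe day 0 over mock the same scales gave -0.03, -0.29, -0.22 and 0.16, so only the scale added later was above 0 there. For Pe day 3 over Pe day 0 the scales gave 0.28, 0.10, -0.02 and -0.09. With RPM as deposited, all 3 Pe day 3 libraries were above all 3 Pe day 0 libraries. The miR-956-3p share was 69.8% to 74.9% of reads at Pe day 3 and 74.4% to 80.2% at Pe day 0. Its part in this difference was not tested. Of the miRNAs ranked above miR-31a-5p, miR-184-3p and miR-263a-5p were also higher at Pe day 3 without overlap, while miR-956-3p and miR-10-5p overlapped. The share of all miRNAs that separate these groups was not counted, so the separation is not read as particular to miR-31a-5p. Per 1000000 reads other than miR-956-3p, miR-31a-5p stood at 26136 ± 2620 at Pe day 3, 27836 ± 3198 at Pe day 0 and 24960 ± 3182 in mock (SD, n = 3 each), and all groups overlapped.

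**Figure D3:**
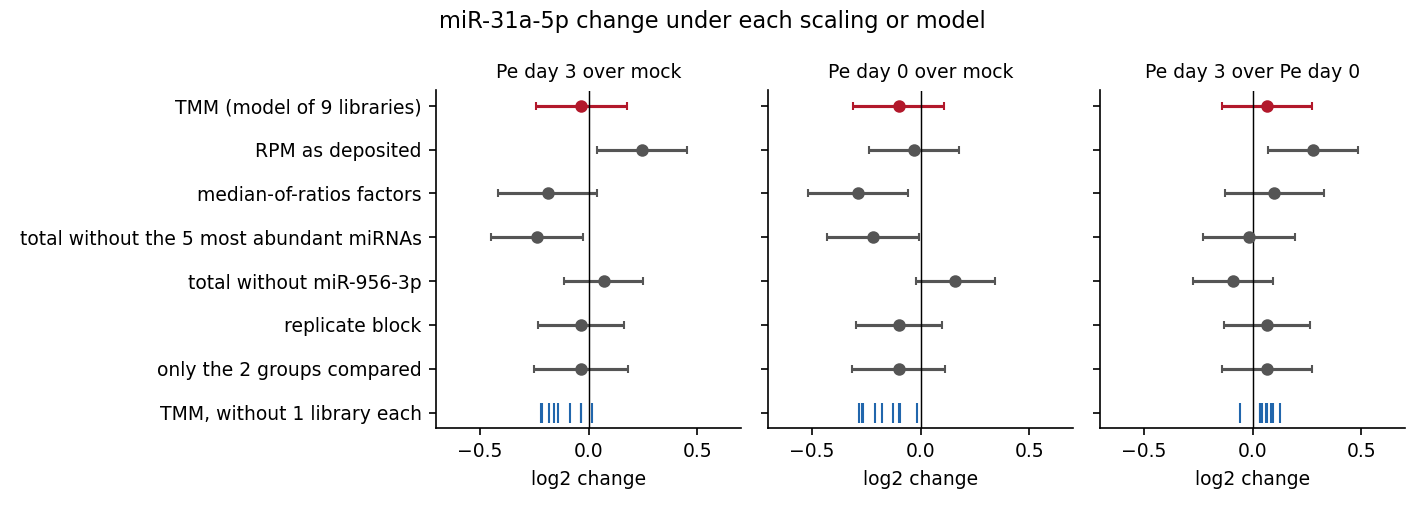
Log2 change of miR-31a-5p in the 3 comparisons (panels) under each scaling or model (rows), with the SE from limma as bars. The ticks in the lowest row are the TMM values without each library in turn. The points fall on both sides of 0 in every panel and stay between -0.29 and 0.28.

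The authors' deposited table of comparisons names no contrast in its header. Its values were matched to comparisons by size: over the 47 miRNAs with a deposited mean above 50, those of the first set lay within 0.033 of Pe day 0 over mock, and those of the second within 0.045 of Pe day 3 over mock. For miR-31a-5p the authors' deposited table gives -0.22 ± 0.19 SE for Pe day 3 over mock and -0.32 ± 0.19 SE for Pe day 0 over mock, on the scale of median-of-ratios factors. Both comparisons share the mock libraries.

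How far the level moved from library to library was compared with other miRNAs as a description, since steadiness was part of the choice. The SD of log2 scaled RPM of miR-31a-5p over the 9 libraries was 0.204, rank 5 from the smallest of 73, where the median was 0.433 and the range 0.172 to 1.89. Smaller values were those of miR-8-3p (0.172), bantam-3p (0.194), miR-277-3p (0.196), known for its part in amino acid metabolism, and miR-316-5p (0.202). The TMM value may be narrowed by the weight of miR-31a-5p in the factors. As deposited RPM the SD of miR-31a-5p was 0.211, rank 4. Without miR-956-3p in the total it was 0.159, the smallest of the 73. These ranks were not adjusted for level, and what low read counts add to the spread of scarcer miRNAs was not tested. The neighbour in level, miR-10-3p, had 0.231 on the TMM scale.

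**Figure D4:**
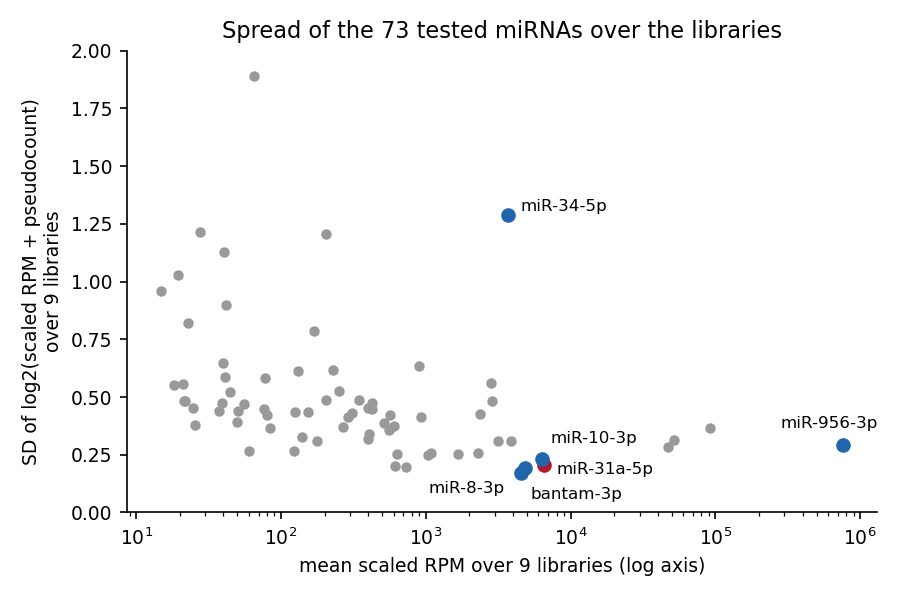
SD of log2(scaled RPM + pseudocount) over the 9 libraries against the mean scaled RPM (log axis) for the 73 tested miRNAs, with 6 of them named. miR-31a-5p (red) has an SD of 0.204, beside bantam-3p, miR-8-3p and miR-10-3p, while miR-34-5p of similar abundance is far higher.

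The 3p arm of miR-31a was listed at 0 in all libraries against 35099 reads of the 5p arm. The smallest value listed in any library was 2 reads, so a 0 may stand for 1 read. Among the 20 most abundant hairpins whose arms both have a row of their own in the table, 2 had the other arm at 0 throughout, miR-31a and miR-33, a regulator of lipid metabolism. In the other 18 the scarcer arm made up between 0.016% of the reads of both arms, for miR-956, and 46.2%, for miR-958. miR-184 (0.072%) and miR-263a (0.091%), which are more abundant than miR-31a, had 196 and 218 reads of the scarcer arm.

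miR-31b-5p was scarce in all libraries except 1. It had 4, 0 and 0 reads at Pe day 3, 9, 0 and 184 reads at Pe day 0, and 3, 0 and 2 reads in mock (replicates 1, 2 and 3). As RPM these were 4.63, 0 and 0 at Pe day 3, 11.1, 0 and 149 at Pe day 0, and 4.24, 0 and 4.02 in mock. Pe day 0 replicate 3 held 91.1% of the 202 reads, and its level was 13.4-fold the next highest, which was that of Pe day 0 replicate 1. The 4 libraries at 0 were the 4 shallowest, with at most 399569 reads against at least 497997 in the others, and there the smallest value that could be listed was 5.01 to 8.89 RPM. At these depths the low levels in the other 8 libraries cannot be ordered.

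Without Pe day 0 replicate 3, miR-31b-5p had 9 and 0 reads at Pe day 0, against 3, 0 and 2 in mock. The authors' deposited table lists a log2 fold change of 3.69 ± 1.76 SE for miR-31b-5p at Pe day 0 over mock and of -1.01 ± 1.96 SE at Pe day 3 over mock, with no adjusted p for the first. The value for Pe day 0 goes with that 1 library.

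Relative to its paralog, miR-31b-5p had 0.064, 0 and 0 reads per 100 reads of miR-31a-5p at Pe day 3, 0.206, 0 and 2.27 at Pe day 0, and 0.079, 0 and 0.051 in mock. The mean over the 9 libraries was 0.297 per 100, and without Pe day 0 replicate 3 it was 0.050. In that library miR-31a-5p itself was not set apart, with 6533 RPM inside the range of the other libraries. The 5p forms are known to be closely similar, but their sequences were not compared here, and how mismatches were handled in the authors' assignment is not given in the sources used here. Whether reads of either paralog were counted as the other was not tested, and the low counts of miR-31b-5p are given with that limit. The table does give each a row of its own, unlike arms with identical sequences, which it lists together.

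Other paralog pairs of the table were set beside this ratio on the more abundant arm. The scarcer paralog was at a median of 8.96 reads per 100 for miR-281-1-5p over miR-281-2-5p, 9.09 for miR-92a-3p over miR-92b-3p, 16.5 for miR-2a-3p (listed with miR-2c-3p) over miR-2b-3p, 25.5 for miR-996-3p over miR-279-3p and 33.3 for miR-9b-5p over miR-9c-5p. In each of these pairs the scarcer paralog was listed in all 9 libraries. Nearer to miR-31 were miR-276b-3p, with 0 to 0.472 reads per 100 of miR-276a-3p and listed in 4 libraries, and miR-263b-5p, with 6 reads in all, every one of them in Pe day 0 replicate 3. miR-13a-3p was at 0 throughout. For miR-31b-5p the median was 0.051 per 100 and the highest library 2.27, below the lowest library of each pair listed in all 9 libraries.

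Pe day 0 replicate 3 also stood apart in other scarce miRNAs. By a rule chosen after the values were seen, at least 10 reads and more than 3 times the RPM of any other library, 5 miRNAs were set apart there, 1 each in Pe day 3 replicates 2 and 3, and 0 in the other 6 libraries. Besides miR-31b-5p these were miR-989-3p, which acts in the ovary, and miR-311-3p and miR-312-3p, of a cluster active in the ovary and early embryo. The last was miR-9a-5p, known from work on the specification of sensory organ precursors. miR-989-3p and miR-311-3p had 96 and 45 reads there and were at 0 in the other 8 libraries. miR-312-3p had 88 reads there and at most 4 elsewhere. miR-9a-5p stood at 146 RPM there, against 13.5 to 46.6 RPM in the other libraries. miR-318-3p, miR-92a-3p and miR-92b-3p were also looked at and did not meet the rule. miR-318-3p had 44.4 RPM there, against 27.5 RPM in Pe day 3 replicate 2 and 16.1 RPM in Pe day 0 replicate 1. The part of these miRNAs, or of the depth of Pe day 0 replicate 3, the deepest of the 9, in the level of miR-31b-5p was not tested.

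**Figure D5:**
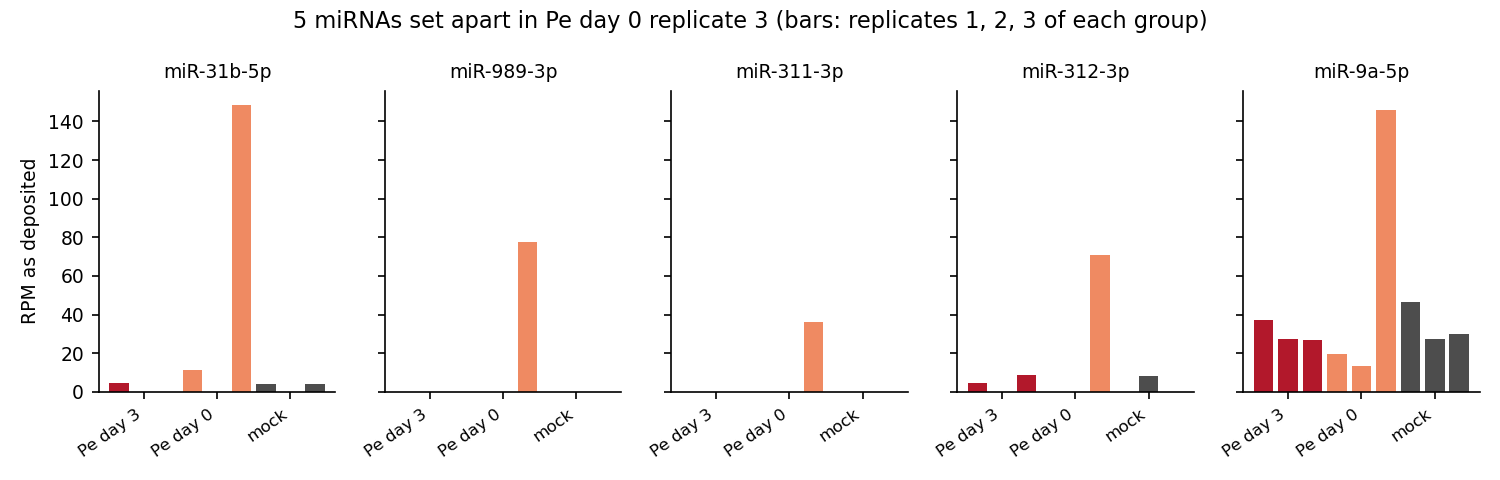
Deposited RPM of the 5 miRNAs set apart in Pe day 0 replicate 3, with a bar for each library (replicates 1, 2 and 3 from left to right within a group). miR-31b-5p reaches 149 RPM in that library and at most 11.1 RPM in any other, and miR-989-3p and miR-311-3p have no bar elsewhere.

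The miRNAs whose pattern was most like that of miR-31a-5p were taken by Pearson r of log2 scaled RPM over the 9 libraries, which share scaling factors and depth. They were miR-375-5p (r = 0.60), miR-184-3p (0.55), miR-263a-5p (0.52), miR-314-3p (0.49) and miR-956-3p (0.46). The median r over the other 72 tested miRNAs was -0.07, with a range of -0.76 to 0.60. With RPM as deposited miR-263a-5p came first (r = 0.85), miR-184-3p had an r of 0.70 and miR-956-3p one of -0.73, the lowest of all. Without miR-956-3p in the total, miR-263a-5p had an r of 0.12 and miR-184-3p one of 0.21. The order of likeness thus changed with the scaling.

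A list of miRNAs known from work on the adult fly midgut was set beside miR-31a-5p. The list was chosen with earlier results of these data known, and both arms of miR-958 are among its calls. Its counts are therefore a description and not independent of these data. For Pe day 3 over mock, 3 of 14 tested arms of miR-8, miR-305, miR-275, miR-263a, miR-277, bantam and miR-958 were called higher and 1 lower in limma, against 12.3% higher and 5.48% lower among all 73. The 4 calls became 2 with median-of-ratios factors or with no filter, and 1 relative to the total without the 5 most abundant miRNAs. Leaving out Pe day 3 replicate 3 also gave 2, as did leaving out Pe day 0 replicate 1. Leaving out 1 of Pe day 3 replicate 2, Pe day 0 replicate 3 and mock replicates 1 and 3 gave 1. Higher in log2 scaled level were miR-275-3p, by 0.89 ± 0.26 SE (adjusted p = 0.017), and miR-305-5p, a regulator of intestinal stem cells, with 0.79 ± 0.27 (adjusted p = 0.037). So was miR-958-3p, at 0.76 ± 0.26 (adjusted p = 0.037). Lower was miR-958-5p, with -0.81 ± 0.23 (adjusted p = 0.016). The other arms of miR-275 and miR-305 were not called, with 0.38 ± 0.27 for miR-275-5p and -0.10 ± 0.23 for miR-305-3p. Of miR-305, the arm not called was the more abundant, with a mean of 3107 RPM against 297 RPM for miR-305-5p. For Pe day 0 over mock and for Pe day 3 over Pe day 0, limma called 0 of the 14 arms, with 6 and 2 of the 14 at an unadjusted p under 0.05, where 20 and 13 of all 73 were. The list had a median log2 change of 0.02, 0.40 and -0.04 in the order of comparisons above, against the medians of all 73 given earlier.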

How the data were processed

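Small RNA was measured in 9 midgut libraries, made from 2 µg of TRIzol-extracted total RNA with the Illumina TruSeq small RNA kit, per the labels' protocols. The authors deposited RPM for 467 miRNAs (the file's name mentions miRge), summing to 1000000 per library, and its database and mismatch settings are not given in the sources used here. A second table, the authors' deposited comparisons, holds a mean signal over the libraries, log2 fold changes with their standard errors, a Wald score and p-values, per the file headers, and the submitters' processing notes name DESeq2 1.22.0.

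Dividing each library's RPM by its own step gave reads within 1.27e-06 of whole numbers, which matched the deposited mean signal to 4.44e-15. They served for depth, TMM factors (30% of log ratios and 5% of abundances trimmed) and median-of-ratios factors, and no count test was run. The filter asked for 20.1 RPM (10 reads where the depth is the median, 497997) in 3 or more libraries and kept 73 miRNAs. The pseudocount of 4.02 RPM equals 2 reads at that depth. A single limma 3.58.1 model (R 4.3.3, variances trended and robust, 6 residual degrees of freedom) covered the 9 libraries. Its code had been tested on simulated data in which every miRNA had the same dispersion. The spread in these libraries differs between miRNAs, so that simulation does not show the error rate here. Hairpin positions are from Ensembl release 115, which may not be the build the authors used.

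The members, lists and tests were chosen with earlier results of these data known. The named miRNAs were all miR-31 arms, the 5 most alike in pattern, the 5 most abundant and the next below, 8 other paralog pairs, cell type markers and called arms of a midgut list. Sharing of the seed with further miRNAs was not searched. Same-numbered Pe day 0 and mock libraries deviated together (r = 0.24 to 0.43 over 3 pairs), and differently numbered ones had r from -0.40 to 0.11. Deviations were centred within each group of 3, which ties these values to each other, so whether the numbers pair these groups is not settled. The main model left the numbers out, and the replicate block was run as an alternative. Intervals from the model include the spread between libraries. Reads are PCR copies without molecular identifiers, so no counting intervals are attached. Planned results on miR-31a-3p and on the arm ratio were not run because that arm was at 0.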

Additional observations from a re-analysis of the deposited data

How the results depend on the processing

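The log2 changes of miR-31a-5p over 19 alternatives ranged from -0.24 to 0.25 for Pe day 3 over mock, from -0.29 to 0.16 for Pe day 0 over mock and from -0.09 to 0.28 for Pe day 3 over Pe day 0. They moved by more than the residual SD of 0.23 only to 0.25 with RPM as deposited (Pe day 3 over mock) and to 0.16 with the total without miR-956-3p (Pe day 0 over mock). Leaving out 1 library gave -0.22 to 0.02, -0.28 to -0.02 and -0.06 to 0.13 in the same order. The sign turned without mock replicate 3 in the first and without Pe day 3 replicate 1 in the last. The share of miR-31a-5p, a mean of 0.660% of reads, was 0.645% to 0.675% without 1 library. The mean of miR-31b-5p per 100 reads of miR-31a-5p was 0.050 to 0.334, with the lowest value without Pe day 0 replicate 3.

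For Pe day 0 over mock, limma called 0 miRNAs with RPM as deposited and 0 with no filter (16 and 22 at an unadjusted p under 0.05), 1 with the replicate block, 7 with a filter of 100 RPM, and 11 each with only the compared groups and with the total without miR-956-3p. For Pe day 3 over Pe day 0 it called 4 with RPM as deposited, without the 5 most abundant, without miR-956-3p and with no filter, and 6 with the replicate block. Without 1 library the calls were 4 to 15, 0 to 8 and 2 to 7 in the order Pe day 3 over mock, Pe day 0 over mock and Pe day 3 over Pe day 0, with the lowest for the first without Pe day 3 replicate 2 or mock replicate 1. The cause was not tested. Of the midgut list, 4 called arms became 2 with median-of-ratios factors and with no filter, 1 without the 5 most abundant, and 1 to 4 without 1 library (1 without Pe day 3 replicate 2, Pe day 0 replicate 3, mock replicate 1 or mock replicate 3). For Pe day 0 over mock the list's 0 became 4 without miR-956-3p, 1 with 100 RPM, 2 with only the compared groups, and 0 to 1 without 1 library. For Pe day 3 over Pe day 0 it became 1 without the 5 most abundant, without miR-956-3p and with the replicate block, and 0 to 2 without 1 library. Same-numbered libraries that include Pe day 3 had deviations with r from -0.26 to 0.22 over 6 pairs, so there the block rests on a number alone. Depth limits miR-31b-5p, which had at most 9 reads in 8 of 9 libraries.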
